A study of Homo sapiens with 18 samples.

Results

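Expression of 10 genes of TGF-beta and activin signalling was followed across the 6 treatment groups: the ligand genes INHBA, TGFB1 and TGFB2, the decoy receptor gene BAMBI, SMAD3, the inhibitory SMAD genes SMAD6 and SMAD7, and the nuclear corepressor genes SKI, SKIL and TGIF1. They were taken by gene symbol from the 55128 genes of the expression table, and all 10 passed the filter on low values along with 12108 genes in all. RNA was sequenced from T98G, an established human glioblastoma cell line, after 2 h of treatment. The groups were GH plus phenformin (8 µM and 100 µM), 2DG plus phenformin (10 mM and 100 µM), GH alone at 8 µM, 2DG alone at 10 mM, phenformin alone at 100 µM, and the solvent DMSO, with 3 libraries each (A, B and C), which the labels call biological replicates. Gnetin H (GH) is a plant oligostilbene that was studied as an inhibitor of glycolysis, 2-deoxyglucose (2DG) is a glucose analogue that blocks glycolysis, and phenformin is a biguanide that inhibits mitochondrial complex I. The 10 mM of 2DG is the dose in the sample labels and in the methods, whereas the results text of the study gives a higher one. All 18 libraries came from 1 cell line, so the values describe this line only, and fewer expressing cells and less RNA per cell cannot be told apart in bulk RNA.

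TGF-beta and activin ligands are secreted dimers that bind pairs of serine/threonine kinase receptors on the cell surface. The activated receptor phosphorylates SMAD2 and SMAD3, which join SMAD4, enter the nucleus and act on target genes together with other transcription factors. The pathway is held back at several levels: BAMBI resembles a type I receptor without its kinase domain, SMAD7 and SMAD6 compete at the receptor and recruit ubiquitin ligases, and SKI, SKIL and TGIF1 are corepressors of SMAD complexes in the nucleus. Several of these inhibitors, SMAD7 and SKIL among them, are known as targets of the pathway itself. In glioblastoma, TGF-beta signalling is known for its part in invasion, stem-like growth and immune evasion, and TGFB2 was described early as a ligand that these tumours secrete.

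The libraries held 18417756 to 22497604 mapped fragments, and a member gene rested on 119 fragments (INHBA) to 10313 fragments (SMAD3) in a library. The values are FPKM, that is fragments scaled to the exon length of the gene and to the mapped fragments of the library. Levels of different genes are thus compared per length, and the GC trends given below remain in them. DMSO library C and GH plus phenformin library A stood apart from the other libraries of their groups. Their slopes of log2 expression on GC content were 0.05 per 10 percentage points in DMSO C, against -0.30 and -0.23 in DMSO A and B, and -0.19 in GH plus phenformin A, against 0.23 in each of GH plus phenformin B and C. Several calls changed when 1 or both were left out, and their values without these libraries are given below. Slopes also differed between groups. They were 0.13 to 0.29 in 2DG, 0.08 to 0.31 in 2DG plus phenformin, -0.17 to 0.04 in GH and -0.36 to -0.21 in phenformin. GC trend and treatment thus cannot be told apart in comparisons of such groups. The glioma markers VIM, CD44 and SOX9 were expressed (at least 808, 310 and 14.3 FPKM), while GFAP, NES, SOX2 and OLIG2 stayed at or under 0.142 FPKM and S100B was listed at 0 in every library. Of 15 markers of other cell types, 6 were listed at 0 in every library. The 15 together summed to 0.681 to 0.921 FPKM in GH plus phenformin and 0.793 to 1.08 FPKM in DMSO. Most of this was the neuronal marker SNAP25, at 0.555 to 0.991 FPKM over all libraries, while the others stayed at or under 0.103 FPKM.

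The promoter windows of RefSeq (GRCh38.p14, 250 bases before to 50 after the annotated start) matched 9 of the 10 genes, SKI having no entry. They were searched on both strands for CAGACA, the core of the CAGA box bound by SMAD3 and SMAD4, and GTCTAGAC, the palindromic SMAD element, as well as TGANTCA (AP-1) and TGATGCAA (the element of ATF4 and C/EBP factors). No match overlapped another. Only the first listed window of each gene was searched, and its RefSeq start need not be the start in the authors' annotation. The windows of INHBA, SMAD3 and TGIF1 lie inside the gene bounds of that annotation, and the windows of TGFB2 and SMAD7 lie ahead of them. CAGACA was found in 3 of the 9 windows, those of INHBA, TGFB2 and TGIF1, and it is in 16.83% of the 27305 windows of all genes. GTCTAGAC was found in SMAD6, against 0.2014% of all windows, and TGANTCA and TGATGCAA were in 0 of the 9 (7.764% and 0.9229% of all windows). A match describes letters only, and binding was not measured. The stretches that hold a match are shown because these members are described in detail below or carry the rare palindrome, with the motif in capitals. INHBA lies on the minus strand (chr7:41703046-41703075), with the match starting 27 bases after the RefSeq start. TGFB2 (chr1:218345086-218345335), TGIF1 (chr18:3411759-3412008) and SMAD6 (chr15:66701986-66702235) lie on the plus strand, with matches starting 53, 224 and 12 bases before the start.
INHBA: tgaagaggagctCAGACAgctcttaccaca
TGFB2: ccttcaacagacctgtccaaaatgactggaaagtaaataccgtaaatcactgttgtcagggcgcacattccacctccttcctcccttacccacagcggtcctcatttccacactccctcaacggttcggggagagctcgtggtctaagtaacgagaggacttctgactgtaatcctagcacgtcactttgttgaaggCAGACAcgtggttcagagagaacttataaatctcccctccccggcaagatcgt
TGIF1: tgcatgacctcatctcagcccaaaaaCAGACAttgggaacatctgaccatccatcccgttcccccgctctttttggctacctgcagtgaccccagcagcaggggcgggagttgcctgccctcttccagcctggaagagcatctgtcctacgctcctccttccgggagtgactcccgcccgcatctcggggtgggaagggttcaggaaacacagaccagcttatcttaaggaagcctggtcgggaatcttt
SMAD6: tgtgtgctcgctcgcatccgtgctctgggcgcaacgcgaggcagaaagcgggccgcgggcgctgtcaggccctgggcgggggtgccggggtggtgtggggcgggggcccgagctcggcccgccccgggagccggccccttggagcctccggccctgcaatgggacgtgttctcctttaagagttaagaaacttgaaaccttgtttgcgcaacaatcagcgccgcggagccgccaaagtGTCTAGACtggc

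INHBA encodes the subunit of which activin A is a homodimer. The gene lies on the minus strand of chromosome 7, at chr7:41667168-41705834 in the authors' GRCh38 annotation. INHBA was at 2.41, 2.05 and 2.30 FPKM in GH plus phenformin, while 2DG plus phenformin gave 1.42, 1.41 and 1.46 FPKM, against 1.02, 1.10 and 0.953 FPKM in DMSO. Both combinations lay above DMSO with no overlap, and GH plus phenformin lay above every other library. The single agents differed from this: GH gave 1.07, 1.11 and 0.996 FPKM and phenformin 1.09, 1.21 and 1.19 FPKM, overlapping DMSO in each case. In 2DG alone, INHBA was at 0.745, 0.726 and 0.722 FPKM, under every other library. On the log2(FPKM + 0.1) scale, INHBA rose by 1.06 in GH plus phenformin (95% interval 0.89 to 1.23, limma, Benjamini-Hochberg adjusted p = 3.67e-07), while in 2DG plus phenformin it rose by 0.44 (0.27 to 0.62, adjusted p = 5.10e-04). It fell by 0.44 in 2DG alone (-0.61 to -0.26, adjusted p = 8.97e-04). GH (0.04, adjusted p = 0.851) and phenformin (0.17, adjusted p = 0.478) did not pass the test. Ordered by mean level, the groups ran from GH plus phenformin (2.25 ± 0.18 FPKM, SD, n = 3) over 2DG plus phenformin (1.43 ± 0.026), phenformin (1.17 ± 0.065), GH (1.06 ± 0.057) and DMSO (1.03 ± 0.075) to 2DG (0.731 ± 0.012). Within that order, phenformin overlapped GH, and GH overlapped DMSO.

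TGFB2, on the plus strand of chromosome 1 (chr1:218346235-218444619), encodes the TGF-beta 2 ligand and was the most abundant of the 3 ligand transcripts. It stood at 40.8, 34.6 and 32.7 FPKM in GH plus phenformin, against 28.0, 26.4 and 23.7 FPKM in DMSO. In 2DG plus phenformin it stood at 33.1, 37.0 and 32.2 FPKM. Neither combination overlapped DMSO. Phenformin alone gave the closely spaced values 33.5, 33.0 and 32.7 FPKM, which also lay above all DMSO libraries, while GH (26.5, 25.2 and 24.7 FPKM) and 2DG (24.2, 24.5 and 23.1 FPKM) overlapped DMSO. TGFB2 rose by 0.46 on the log2 scale in GH plus phenformin (0.30 to 0.63, limma adjusted p = 5.05e-04), while in 2DG plus phenformin the rise was 0.39 (0.22 to 0.55, adjusted p = 9.35e-04). Against DMSO, phenformin alone missed the threshold at 0.35 (0.18 to 0.51, adjusted p = 0.0653), and it passed in 7 of 31 alternative analyses, among them without GH plus phenformin A (0.35, adjusted p = 0.014). Neither combination passed over phenformin alone: the difference was 0.12 (-0.05 to 0.28) with GH added and 0.04 (-0.12 to 0.20) with 2DG added. After the GC and length correction described below, both differences passed (0.27 and 0.31).

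TGFB1, on the minus strand of chromosome 19 (chr19:41301587-41353911), encodes the TGF-beta 1 ligand and had the widest spread within a group, a coefficient of variation of 26.7% in DMSO. It was at 5.58, 6.98 and 6.88 FPKM in 2DG, against 3.60, 4.08 and 5.89 FPKM in DMSO, where library C was the high one. GH plus phenformin gave 4.38, 6.54 and 6.72 FPKM, with library A the low one, and 2DG plus phenformin gave 6.12, 5.21 and 7.26 FPKM. These 3 groups all overlapped DMSO. GH was at 3.69, 4.55 and 5.28 FPKM, and phenformin, at 3.15, 3.56 and 3.29 FPKM, lay just under DMSO. TGFB1 rose by 0.53 in 2DG against DMSO (0.12 to 0.95, limma adjusted p = 0.0321), a call that was lost in 8 of 31 alternative analyses, among them without DMSO A, DMSO B, 2DG B or 2DG C. The combinations did not pass against DMSO (GH plus phenformin at 0.38, adjusted p = 0.148, and 2DG plus phenformin at 0.46, adjusted p = 0.0559). Without GH plus phenformin A and DMSO C they did (0.77, adjusted p = 0.00117, in GH plus phenformin). At 63.6% GC, TGFB1 has the most GC-rich transcript of the 10, and 4 genes on the opposite strand overlap it, the highest at a mean of 50.6 FPKM. The mapping used strand. After the GC and length trend of each library was removed, TGFB1 was lower in 2DG (-0.30) and 2DG plus phenformin (-0.23) than in DMSO, the opposite sign.

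BAMBI, on the plus strand of chromosome 10 (chr10:28677342-28682939), encodes the decoy receptor that dampens TGF-beta and activin signals. It was lower than DMSO in all 5 treatments, with no library overlapping. BAMBI stood at 11.2, 10.9 and 11.4 FPKM in GH plus phenformin and at 13.2, 14.8 and 15.1 FPKM in GH, against 25.8, 28.7 and 26.3 FPKM in DMSO. In 2DG it stood at 16.6, 15.9 and 15.7 FPKM, in 2DG plus phenformin at 19.4, 18.3 and 17.2 FPKM, and in phenformin at 19.7, 17.6 and 17.5 FPKM. Apart from the overlap of phenformin with 2DG plus phenformin, the groups did not overlap each other. BAMBI fell by 1.26 on the log2 scale in GH plus phenformin (-1.39 to -1.12, limma adjusted p = 3.72e-09), a 2.39-fold lower level. It fell by 0.90 in GH (adjusted p = 6.35e-07), by 0.74 in 2DG (adjusted p = 1.60e-06), by 0.55 in 2DG plus phenformin (adjusted p = 8.35e-06) and by 0.56 in phenformin (adjusted p = 7.48e-04). The fall in phenformin alone was the only one against DMSO that failed in any alternative: in a model of the phenformin and DMSO libraries only, the adjusted p was 0.14. The 5 comparisons share the same 3 DMSO libraries.

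**Figure D1:**
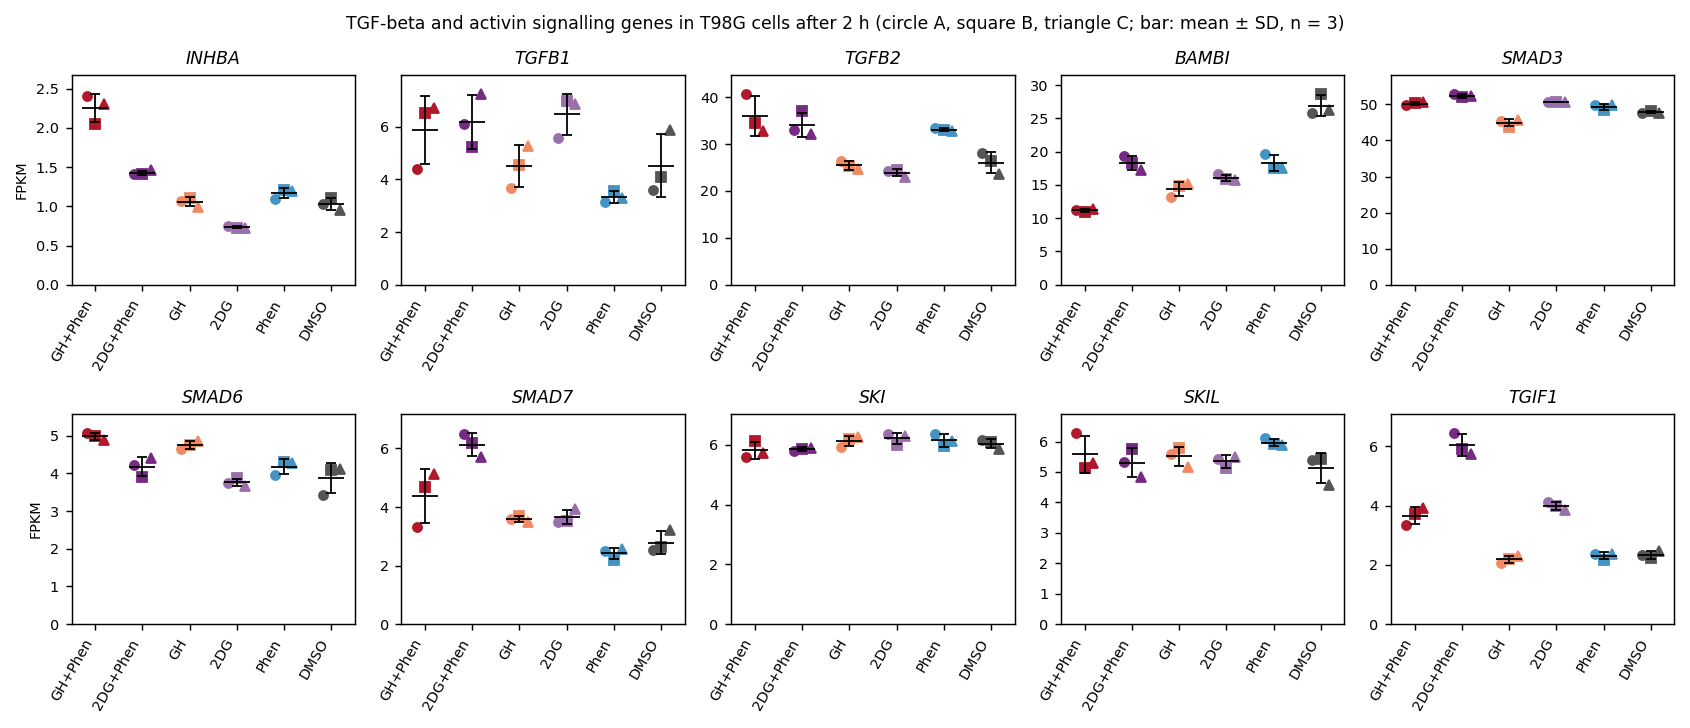
Levels of the 10 genes in FPKM (vertical axis, from 0) in each treatment group (horizontal axis), with libraries A, B and C as circle, square and triangle and the mean ± SD of 3 libraries as bars. INHBA is highest in GH plus phenformin (2.05 to 2.41 FPKM), BAMBI is lower in every treatment (10.9 to 19.7 FPKM) than in DMSO (25.8 to 28.7 FPKM), and TGIF1 and SMAD7 are highest in 2DG plus phenformin.

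SMAD3, on the plus strand of chromosome 15 (chr15:67063763-67195195), encodes the receptor-activated SMAD of the TGF-beta and activin branch. It was the most abundant of the 10 transcripts per length and moved little: 49.8, 50.4 and 50.6 FPKM in GH plus phenformin, 53.0, 51.9 and 52.4 FPKM in 2DG plus phenformin, 45.3, 43.8 and 45.6 FPKM in GH, 50.7, 50.6 and 50.8 FPKM in 2DG, and 49.9, 48.4 and 49.8 FPKM in phenformin, against 47.6, 48.2 and 47.7 FPKM in DMSO. With coefficients of variation between 0.168% and 2.15%, these groups did not overlap DMSO although the highest fold was 1.10. SMAD3 rose by 0.13 in 2DG plus phenformin (limma adjusted p = 7.36e-04), by 0.08 in 2DG (adjusted p = 0.0144) and by 0.07 in GH plus phenformin (adjusted p = 0.0492), and it fell by 0.09 in GH (adjusted p = 0.0487). The call in GH was lost in 21 of 31 alternative analyses and the call in GH plus phenformin in 24 of 31. That in 2DG was lost without DMSO A.

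SMAD7, on the minus strand of chromosome 18 (chr18:48919853-48950711), encodes the inhibitory SMAD of TGF-beta and activin receptors. It was highest in 2DG plus phenformin, at 6.51, 6.18 and 5.71 FPKM, against 2.51, 2.62 and 3.22 FPKM in DMSO. GH plus phenformin spread widely, at 3.32, 4.69 and 5.11 FPKM, with library A the low one, yet did not overlap DMSO. GH (3.57, 3.68 and 3.49 FPKM) and 2DG (3.49, 3.53 and 3.92 FPKM) lay above DMSO and overlapped each other, and phenformin (2.48, 2.20 and 2.56 FPKM) overlapped DMSO. SMAD7 rose by 1.12 on the log2 scale in 2DG plus phenformin (0.84 to 1.39, limma adjusted p = 9.34e-06), by 0.62 in GH plus phenformin (0.34 to 0.89, adjusted p = 0.00271) and by 0.38 in 2DG (0.11 to 0.66, adjusted p = 0.0226). The rise in 2DG was lost without DMSO A, DMSO B or 2DG C. GH alone did not pass at 0.36 (0.08 to 0.63, adjusted p = 0.13). Without GH plus phenformin A, the same 0.36 of SMAD7 in GH passed (adjusted p = 0.021).

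SMAD6, near SMAD3 on the plus strand of chromosome 15 (chr15:66702228-66782848), encodes the inhibitory SMAD that acts mainly on BMP receptors. It was at 5.07, 4.99 and 4.88 FPKM in GH plus phenformin and at 4.65, 4.75 and 4.86 FPKM in GH, against 3.43, 4.09 and 4.12 FPKM in DMSO. These 2 groups lay above all other libraries. 2DG plus phenformin (4.23, 3.90 and 4.40 FPKM), 2DG (3.74, 3.87 and 3.67 FPKM) and phenformin (3.96, 4.31 and 4.28 FPKM) overlapped DMSO. SMAD6 rose by 0.36 in GH plus phenformin (limma adjusted p = 0.00139), and its rise in GH was 0.29 (adjusted p = 0.0194). Without DMSO A, the low library, the difference of SMAD6 in GH was 0.21 (adjusted p = 0.084). After the GC and length trend was removed, neither passed: SMAD6 was at 0.03 in GH plus phenformin (adjusted p = 0.873), and GH gave 0.17 (adjusted p = 0.482). SMAD6 was then lower in 2DG than in DMSO (-0.58, limma adjusted p = 0.00462), beside -0.04 before. It was also lower in 2DG plus phenformin than in phenformin (-0.60, adjusted p = 0.00275), beside -0.0017 before.

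TGIF1, on the plus strand of chromosome 18 (chr18:3411608-3459978), encodes a homeodomain corepressor of SMAD2 and SMAD3. It was highest in 2DG plus phenformin, at 6.45, 5.92 and 5.74 FPKM, against 2.32, 2.22 and 2.48 FPKM in DMSO. 2DG gave 4.12, 3.97 and 3.86 FPKM and GH plus phenformin 3.34, 3.72 and 3.91 FPKM, overlapping each other and lying above DMSO. In GH (2.07, 2.21 and 2.28 FPKM) and phenformin (2.38, 2.16 and 2.37 FPKM), TGIF1 overlapped DMSO. It rose by 1.33 in 2DG plus phenformin (1.18 to 1.48, limma adjusted p = 4.52e-09), a 2.52-fold higher level, by 0.74 in 2DG (0.59 to 0.89, adjusted p = 4.08e-06) and by 0.62 in GH plus phenformin (0.47 to 0.77, adjusted p = 1.88e-05). GH (-0.09, adjusted p = 0.575) and phenformin (-0.02, adjusted p = 0.904) did not pass. All 3 rises of TGIF1 passed in each of the 31 alternative analyses.

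The corepressor genes SKI (plus strand, chr1:2228695-2310119) and SKIL (plus strand, chr3:170357678-170396835), whose proteins bind SMAD complexes and recruit histone deacetylases, had no called change. SKI lay between 5.59 and 6.38 FPKM and SKIL between 4.57 and 6.28 FPKM over the 18 libraries. Both passed the limma test in 0 of 12 comparisons (at an unadjusted p under 0.05, SKI passed in 0 and SKIL in 1). The intervals for SKI against DMSO lay between -0.15 and 0.14 on the log2 scale, and those for SKIL between -0.14 and 0.40. Against DMSO, SKIL had its largest difference in phenformin, at 6.10, 5.90 and 5.89 FPKM, against 5.41, 5.43 and 4.57 FPKM in DMSO (0.22, limma adjusted p = 0.377). The lowest adjusted p of SKIL was 0.0919, for 2DG plus phenformin over phenformin (-0.17). At 35.8% GC, SKIL has the lowest GC content of the 10 transcripts, and SKI, at 61.4%, has the second highest. After the GC and length trend was removed, SKIL rose in 2DG plus phenformin (0.34, adjusted p = 4.54e-06), 2DG (0.28, adjusted p = 5.49e-05), GH plus phenformin (0.28, adjusted p = 6.54e-05) and GH (0.13, adjusted p = 0.0331), and SKI fell in 2DG (-0.67, adjusted p = 0.014) and 2DG plus phenformin (-0.61, adjusted p = 0.0191). The correction raised the standard error of SKI from 0.046 to 0.20, so it added spread between libraries to this gene. That of SKIL went from 0.085 to 0.039.

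Counted over the 10 genes, 6 rose (INHBA, TGFB2, SMAD3, SMAD6, SMAD7 and TGIF1) and 1 fell (BAMBI) in GH plus phenformin against DMSO, where 9.4% of all tested genes rose and 18.6% fell. In 2DG plus phenformin, 5 rose (INHBA, TGFB2, SMAD3, SMAD7 and TGIF1) and 1 fell (BAMBI), against 21.1% and 32.8% of all genes. In 2DG alone, 4 rose (TGFB1, SMAD3, SMAD7 and TGIF1) and 2 fell (INHBA and BAMBI), against 24.7% and 30.3%. In GH alone, 1 rose (SMAD6) and 2 fell (BAMBI and SMAD3), against 2.29% and 3.63%. In phenformin alone, BAMBI was the 1 gene that fell (0.206% of all genes) and 0 rose (0.339%), while SKIL and TGFB2, 2 genes, were higher at an unadjusted p under 0.05 in limma. The median log2 difference of the 10 genes was 0.37 in GH plus phenformin, and 2DG plus phenformin had a median of 0.26, beside -0.02 and -0.05 for all tested genes. The members were picked by name with earlier results of these data known, so the counts are a description. At the stricter thresholds of the study's methods (fold of at least 2, Bonferroni p of at most 0.05, mean FPKM of at least 1 in the higher group), INHBA was higher and BAMBI lower in GH plus phenformin, beside 0.322% and 0.223% of all genes. SMAD7 and TGIF1 were higher in 2DG plus phenformin, beside 0.463% of all genes. These thresholds were applied to the limma fits and not to the study's own test, so its calls can differ.

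**Figure D2:**
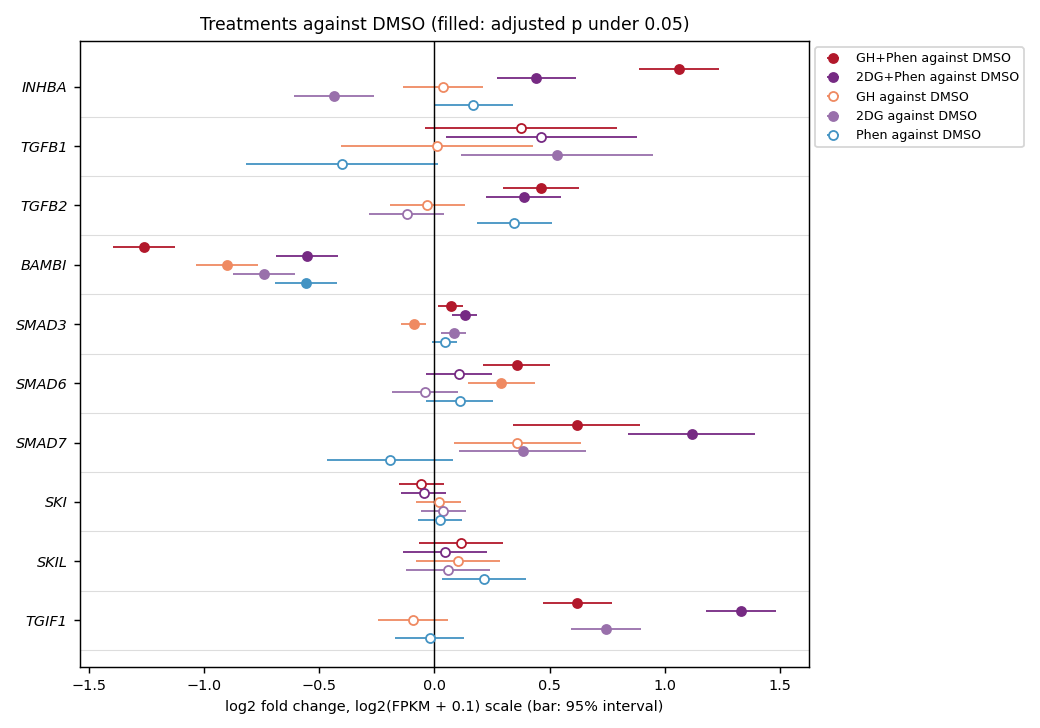
Log2 fold change against DMSO with its 95% interval (horizontal axis, log2(FPKM + 0.1) scale) for each gene (rows) and treatment (colours), filled where the limma adjusted p is under 0.05. BAMBI lies left of 0 in all 5 treatments (-1.26 in GH plus phenformin), INHBA right of 0 in both combinations and left of 0 in 2DG (-0.44), and SKI stays near 0.

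The combinations were next compared with their single agents. With GH plus phenformin over GH alone, INHBA rose by 1.02 (0.85 to 1.20, limma adjusted p = 1.37e-06), TGIF1 by 0.71 (adjusted p = 1.21e-05), TGFB2 by 0.49 (adjusted p = 7.52e-04) and SMAD3 by 0.16 (adjusted p = 7.93e-04), while BAMBI fell by 0.36 (adjusted p = 0.00181). These are 4 genes up and 1 down, where 3.3% of all genes rose and 9.22% fell. INHBA was the 1 member past the stricter thresholds, beside 0.14% of all genes. With GH plus phenformin over phenformin alone, INHBA rose by 0.89, SMAD7 by 0.81, TGFB1 by 0.78, TGIF1 by 0.64 and SMAD6 by 0.25, and BAMBI fell by 0.70 (adjusted p between 2.74e-06 for BAMBI and 0.0108 for SMAD6), against 23.5% of all genes that rose and 24.2% that fell. The calls of TGFB1 and SMAD6 over phenformin were lost once the GC and length trend was removed (-0.0021, adjusted p = 0.987, and -0.25, adjusted p = 0.165), and that of SMAD6 also without phenformin A.

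With 2DG plus phenformin over 2DG alone, INHBA rose by 0.88 (0.71 to 1.05, limma adjusted p = 4.37e-06), SMAD7 by 0.73 (adjusted p = 0.00141), TGIF1 by 0.59 (adjusted p = 5.30e-05) and TGFB2 by 0.51 (adjusted p = 4.14e-04), and 0 members fell (0 also at an unadjusted p under 0.05), where 3.53% of all genes rose and 7.69% fell. INHBA was thus above DMSO in the combination but below it in 2DG. BAMBI did not pass over 2DG, at 0.19 (0.05 to 0.32, adjusted p = 0.078), although its libraries in 2DG plus phenformin lay above those in 2DG. Over phenformin alone, TGIF1 rose by 1.35 (adjusted p = 4.20e-09), SMAD7 by 1.31 (adjusted p = 2.06e-06), TGFB1 by 0.86, INHBA by 0.27 and SMAD3 by 0.09, and 0 fell (0 also at an unadjusted p under 0.05), against 29.2% and 36.2% of all genes. TGIF1 and SMAD7 also passed the stricter thresholds there, beside 0.487% of all genes. BAMBI differed from phenformin alone by 0.0028 (-0.13 to 0.14), so the 2 groups could not be told apart for this gene. The rises of TGFB1 and SMAD3 over phenformin were lost after the GC and length trend was removed (-0.077 and 0.00074), and that of INHBA after quantile normalization (0.11, adjusted p = 0.447).

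The 2 combinations differed from each other in 5 of the 10 genes. GH plus phenformin had more INHBA (0.62, 0.45 to 0.79, limma adjusted p = 1.56e-04) and SMAD6 (0.25, adjusted p = 0.028), and less TGIF1 (-0.71, adjusted p = 1.45e-05), BAMBI (-0.70, adjusted p = 5.77e-06) and SMAD7 (-0.50, adjusted p = 0.022) than 2DG plus phenformin. That is 2 genes up and 3 down, where 8.33% and 2.16% of all genes rose and fell. The difference of SMAD7 rests on single libraries: it was -0.32 without GH plus phenformin A (adjusted p = 0.074) and also missed the threshold without 2DG plus phenformin A or B. That of SMAD6 was lost in 8 of 31 alternative analyses. For TGFB2 (0.08, interval -0.09 to 0.24) and SKI (-0.01, interval -0.11 to 0.09) the combinations did not differ beyond these bounds.

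Whether a combination differed from the sum of its single effects was tested by the interaction term of the same model. For GH and phenformin, INHBA lay 0.85 above the sum (0.61 to 1.10, limma adjusted p = 6.90e-04) and TGIF1 0.74 above it (0.52 to 0.95, adjusted p = 7.40e-04). They are 2 of 10 above and 0 below in limma (6 and 0 at an unadjusted p under 0.05), where 1.45% of all genes lay above and 3.73% below. BAMBI, which fell with each agent, was 0.20 above the sum (0.01 to 0.39, adjusted p = 0.192) and did not pass. For 2DG and phenformin, SMAD7 lay 0.93 above the sum (0.54 to 1.32, adjusted p = 0.00744), BAMBI 0.74 (0.55 to 0.93, adjusted p = 1.65e-04), INHBA 0.71 (0.47 to 0.95, adjusted p = 0.00181) and TGIF1 0.61 (0.39 to 0.82, adjusted p = 0.00208). These are 4 of 10 above and 0 below in limma (4 and 0 also at an unadjusted p under 0.05), beside 1.38% and 3.59% of all genes. For BAMBI the excess means that the combination was no lower than phenformin alone, although 2DG alone had lowered it too. INHBA and TGIF1 are the genes that passed in both combinations, and the 2 interaction terms share the DMSO and phenformin libraries. After the GC and length correction described below, TGFB2 also passed in both. It then lay 0.27 above the sum with GH (limma adjusted p = 0.0109) and 0.23 above it with 2DG (adjusted p = 0.0211). Without GH plus phenformin A, 6 members passed the interaction of GH and phenformin: SMAD7 (0.63), TGFB1 and SMAD3 also lay above the sum, and SKIL below it. With DMSO C left out as well, 5 passed, SKIL being the one lost. Other calls also moved without these libraries. Over GH alone, SMAD7 (0.44, adjusted p = 0.0056) and TGFB1 (0.56, adjusted p = 0.034) rose in GH plus phenformin once its library A was left out, beside 0.26 and 0.36 with it, neither of which passed. Without both libraries, TGFB2 fell in 2DG against DMSO (-0.19, adjusted p = 0.0082, beside -0.12 with them), and SKIL fell over phenformin in GH plus phenformin (-0.19, adjusted p = 0.024) as well as in 2DG plus phenformin (-0.17, adjusted p = 0.021). The difference of SMAD6 between the combinations no longer passed (0.24, adjusted p = 0.062), and the calls of SMAD3 in GH and in GH plus phenformin against DMSO were lost without DMSO C alone (adjusted p = 0.074 and 0.0655).

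**Figure D3:**
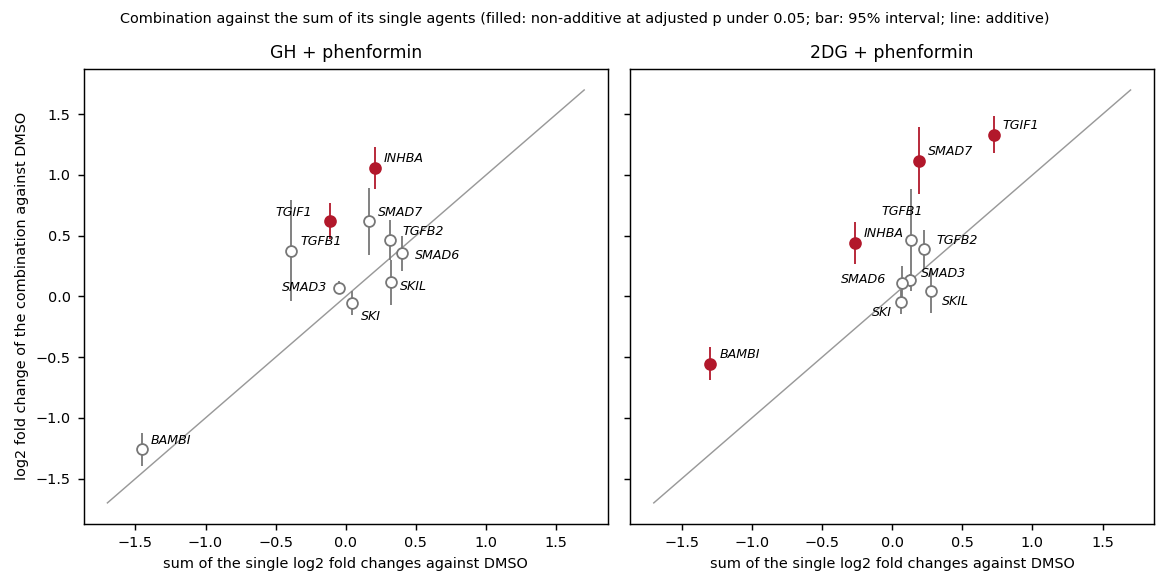
Log2 fold change of each combination against DMSO with its 95% interval (vertical axis) over the sum of the log2 fold changes of its single agents (horizontal axis), filled where the interaction term has a limma adjusted p under 0.05; the line marks additivity. INHBA and TGIF1 lie above the line in both panels, and BAMBI and SMAD7 depart from it past the test for 2DG and phenformin only, a difference between the panels that was not tested.

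GC slopes differed between libraries and between treatment groups. Each comparison was therefore also fitted after the trend of every library on GC content and log transcript length was removed. Such a correction may also take away true changes in GC-rich or GC-poor genes, or add differences to genes that were flat before it. The calls of BAMBI, INHBA and TGIF1 kept their side of the threshold in every comparison with DMSO. In GH plus phenformin they were -1.28, 1.20 and 0.76 after the correction, beside -1.26, 1.06 and 0.62 before it. INHBA moved by more elsewhere, to 0.72 in 2DG plus phenformin and -0.21 in 2DG against DMSO, beside 0.44 and -0.44 before the correction, and to 0.60 in 2DG plus phenformin over phenformin, beside 0.27. TGFB2 kept its rise in both combinations (0.58 and 0.62), and phenformin alone then passed (0.31, limma adjusted p = 0.00128). SMAD7 kept its rise in 2DG plus phenformin (0.80) and GH plus phenformin (0.39) but not in 2DG (-0.032, adjusted p = 0.814). SMAD3 kept none of its rises against DMSO (0.09, 0.02 and -0.01 in 2DG plus phenformin, GH plus phenformin and 2DG). The GC-rich SKI, SMAD6 and TGFB1 moved down and the GC-poor SKIL, INHBA, TGFB2 and TGIF1 moved up by the correction in these 3 comparisons. Whether GC content or the treatment sets the values of the GC-rich genes was not tested.

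**Figure D4:**
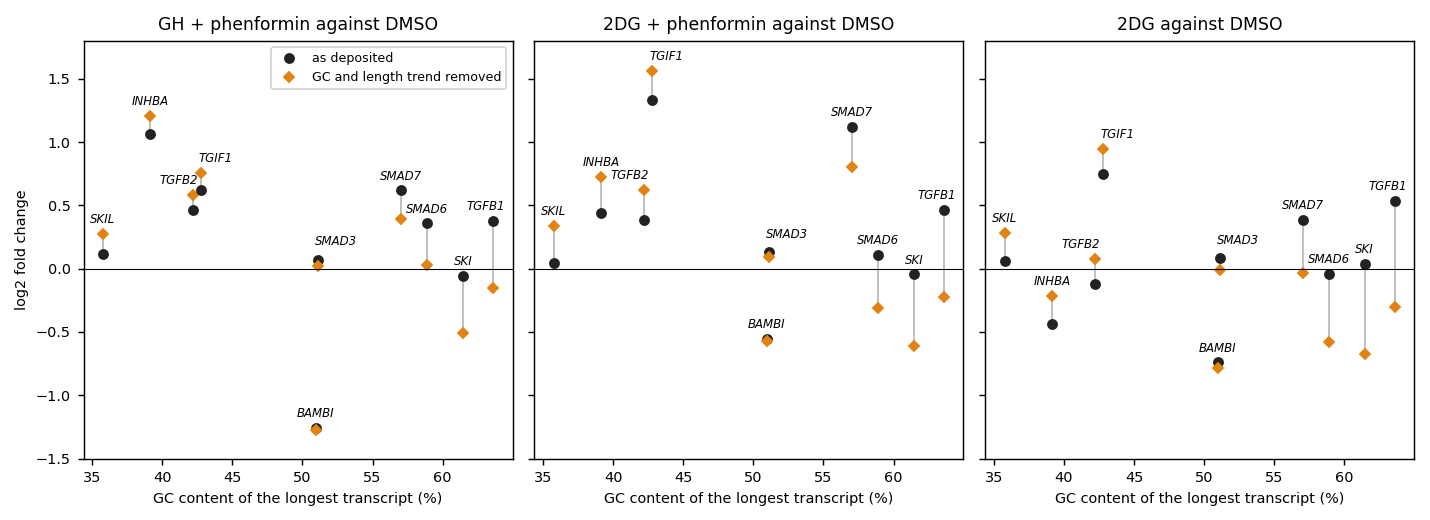
Log2 fold change against DMSO (vertical axis) over the GC content of the longest transcript (horizontal axis, %), as deposited (circles) and after the GC and length trend of each library was removed (diamonds). BAMBI, near 51.0% GC, stays in place, while TGFB1 at 63.6% GC changes sign in all 3 panels.

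Over the 6 group means, INHBA spanned 1.50 on the log2 scale, TGIF1 1.42, SMAD7 1.31 and BAMBI 1.26, spans that lay at percentiles 91.7 to 95.2 of all tested genes. TGFB1 spanned 0.93, TGFB2 0.58, SMAD6 0.40, SMAD3 and SKIL 0.22 each, and SKI 0.10, at percentile 1.40, beside a median span of 0.44. For the 3 members with the largest spans, the genes with the most similar pattern were taken by Pearson's r over the 18 libraries, which fall into 6 treatment groups, as a description. For INHBA these were DKK1 (r = 0.956), a secreted inhibitor of WNT signalling, VMP1 (0.950), a membrane protein of autophagy, and CLK1 (0.912), a kinase of splicing factors. For TGIF1 they were ZFAS1 (0.979), a small nucleolar RNA host gene, SLC2A3 (0.966), the glucose transporter GLUT3, and SAT1 (0.965), which acetylates polyamines. For SMAD7 they were BHLHE40 (0.954), a basic helix-loop-helix repressor, IGFBP5 (0.944), which binds insulin-like growth factors, and AATF (0.938). A high r does not measure the size of a change: BHLHE40 spanned 1.97 over the group means, IGFBP5 0.47 and AATF only 0.17. The similar genes of INHBA and TGIF1 spanned 0.54 (VMP1) to 1.49 (SLC2A3).

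Of 67 further genes of the pathway, listed by role, 51 passed the filter. Against DMSO, 9 of them rose and 7 fell in GH plus phenformin, where 9.4% of all tested genes rose and 18.6% fell. The counts were 17 up, 17 down with 2DG plus phenformin (21.1% and 32.8% of all genes), 13 up, 13 down with 2DG (24.7% and 30.3%), 3 up, 3 down with GH (2.29% and 3.63%), and 1 up, 1 down with phenformin (0.339% and 0.206%). After the GC and length trend was removed, 17 rose and 9 fell in GH plus phenformin, whereas 18 were higher and 8 lower with 2DG plus phenformin. Among the 12022 tested genes with GC content, 2439 rose and 2133 fell after this correction in GH plus phenformin. With 2DG plus phenformin, 3374 of them rose and 2732 fell. The shares over all genes before the correction, and these counts after it, are the background for the counts by role that follow. Among 15 genes that are often used as targets of the pathway, 5 went up and 3 went down with GH plus phenformin, whereas 9 were higher and 2 lower with 2DG plus phenformin. The correction left 5 up, 4 down with GH plus phenformin, against 9 up, 3 down with 2DG plus phenformin. CTGF, a matricellular protein gene, was at 38.9 ± 0.25 FPKM in GH plus phenformin and, with 2DG plus phenformin, at 37.1 ± 1.7 FPKM, against 15.0 ± 0.066 FPKM in DMSO (SD, n = 3 each). It rose by 1.37 and 1.30 (limma adjusted p = 4.8e-12 and 5.8e-12). SNAI2, a repressor of epithelial genes, rose by 1.32 in GH plus phenformin, 1.69 in 2DG plus phenformin, 0.84 in 2DG and 0.59 in GH. CYR61, another matricellular gene, rose by 1.03 in GH plus phenformin but fell by 0.77 in 2DG plus phenformin. In the single agents, CYR61 fell by 0.95 in 2DG and by 0.43 in GH. KLF10, an early TGF-beta response gene, fell by 0.89 in GH plus phenformin but rose by 1.18 in 2DG plus phenformin. It rose by 1.18 in 2DG alone too, and 2DG plus phenformin differed from 2DG by 0.00021 (limma adjusted p = 0.999). The target genes therefore did not share 1 direction within or between the combinations.

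Among the 6 tested genes of latency and ligand traps, 2 rose in GH plus phenformin, 4 rose in 2DG plus phenformin, and 0 fell in either (limma, also 0 at an unadjusted p under 0.05). After the GC and length trend was removed, 3 rose and 0 fell in each combination. LTBP3 and FSTL3, at 67.7% and 64.3% GC, rose by 0.86 and 0.55 in 2DG plus phenformin. Neither passed after the correction (-0.09 and -0.18), and LTBP3 had a mean of only 0.786 FPKM there. FST encodes follistatin, which binds activin A. FST was at 20.7 ± 1.42 FPKM in GH plus phenformin and, with 2DG plus phenformin, at 18.1 ± 1.42 FPKM, against 14.7 ± 0.14 FPKM in DMSO, and at 10.2 ± 0.095 FPKM in 2DG (SD, n = 3 each). Like INHBA, FST thus rose in both combinations (0.48 and 0.29) and fell in 2DG (-0.52, limma adjusted p = 1.0e-05). THBS1, whose product can activate latent TGF-beta, rose by 0.21 and 0.31 in the combinations. Of the 9 tested receptor genes, 1 fell in GH plus phenformin, whereas 5 went down and 1 went up with 2DG plus phenformin. After the correction, 3 rose and 2 fell in GH plus phenformin, but 1 rose and 1 fell with 2DG plus phenformin. TGFBR1, the type I receptor of TGF-beta, fell by 0.27 in GH plus phenformin, 0.53 in 2DG plus phenformin and 0.38 in 2DG, and still passed after the correction at -0.13, -0.25 and -0.16. Of the 5 SMAD genes that transmit signals, besides SMAD3, 1 fell in GH plus phenformin, 3 fell in 2DG plus phenformin and 0 rose (limma; 0 also at an unadjusted p under 0.05), but after the GC and length trend was removed 0 of 5 fell in either. Among 12 other regulators, 1 rose and 2 fell in GH plus phenformin, whereas 1 was higher and 7 lower with 2DG plus phenformin. After the correction, the counts were 6 up, 3 down with GH plus phenformin, against 4 up, 4 down with 2DG plus phenformin. LEMD3, an inner nuclear membrane protein gene whose product binds SMAD2 and SMAD3, fell by 0.31 in GH plus phenformin, 0.67 in 2DG plus phenformin and 0.61 in 2DG. RNF111, a ubiquitin ligase that targets SMAD7 and SKIL, fell by 0.37 in 2DG plus phenformin and 0.30 in 2DG. These falls shrank to -0.13 and -0.11 after the correction, still passing. RNF111 then rose in GH plus phenformin (0.12, limma adjusted p = 0.018), where it was at 0.0037 before. SMURF1, a ubiquitin ligase that partners SMAD7, rose by 0.30 in GH plus phenformin and, with 2DG plus phenformin, by 0.26. The 4 tested ligand genes besides the members gave 1 and 2 rises, BMP7 by 0.29 in GH plus phenformin and by 0.33 with 2DG plus phenformin, and BMP2 by 0.38 in 2DG plus phenformin. BMP7 passed in neither once the GC and length trend was removed (0.08 and 0.05).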

How the data were processed

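T98G RNA was sequenced as stranded mRNA libraries read from both ends, 18 in all. Reads were mapped strand-specifically by the authors to GRCh38 (Ensembl gene models, release 89, in CLC Genomics Workbench, version 11), who deposited FPKM values for 55128 genes. All 25158 genes above 0 stepped in whole fragments at a tolerance of 0.001, which gave the depth: 18417756 to 22497604 mapped fragments per library. FPKM are shares of a library, so a few abundant genes can shift the others, and intervals from 3 libraries cover the spread between replicates and not the dose or the cell line. A chi-square test of fragment counts gave 1.32 to 34.2 per degree of freedom between replicate libraries, where sampling alone gives about 1, so each library was taken as 1 replicate.

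The 12108 genes with at least 0.5 FPKM in at least 3 libraries were fitted on log2(FPKM + 0.1) with limma version 3.58.1 (trend, R version 4.3.3), in 1 model of 6 groups with 12 residual degrees of freedom. Because of the pseudocount, fold changes of genes near 0.1 FPKM are understated. P values were adjusted by Benjamini-Hochberg over all tested genes, with a threshold of 0.05, in 12 comparisons. The design named a count test had counts been given, and it was not used. GC content and length came from GENCODE 44 (12022 tested genes, 99.29%). The model was also run on simulated fragments, with the same extra spread for every gene and no GC trend or shared replicate effects. Such a run does not cover the GC slopes and replicate spread of these libraries. Alternatives covered pseudocounts of 1 and 0.01, filters, scalings, GC and length correction, a replicate block, other sample sets and each library left out. All 10 member genes are named. Further pathway genes are named by role, up to 4 with the smallest adjusted p against DMSO, and similar genes by the 3 highest r. The members and lists were chosen with earlier results of these data known. Tables and figures used Python version 3.11.15, pandas version 2.3.3 and matplotlib version 3.10.9.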

Additional observations from a re-analysis of the deposited data

Results flagged for a closer look

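The effect of GH, or of 2DG, with phenformin present differed from its effect without phenformin in 6 member results, by the interaction term of the limma model. For GH and phenformin these were INHBA (0.85 above the sum of the single effects on the log2 scale, SE 0.11, adjusted p = 6.90e-04) and TGIF1 (0.74, SE 0.10, adjusted p = 7.40e-04). For 2DG and phenformin they were SMAD7 (0.93, SE 0.18, adjusted p = 0.00744), BAMBI (0.74, SE 0.089, adjusted p = 1.65e-04), INHBA (0.71, SE 0.11, adjusted p = 0.00181) and TGIF1 (0.61, SE 0.10, adjusted p = 0.00208). The first 2 and the last 4 share the DMSO and phenformin libraries. INHBA, BAMBI and TGIF1 kept these calls after the GC and length trend was removed, as did SMAD7 for 2DG and phenformin. The interaction of INHBA for 2DG and phenformin missed the threshold under quantile normalization (0.39, adjusted p = 0.0502). No cause of these departures was tested.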

How the results depend on the processing

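Of 54 called member values, 31 stayed called with the same sign under all alternatives run, and 11 results that passed the test before or after the change turned sign, in each case only with the GC and length correction, alone or with the replicate block. With it, TGFB1 was -0.30 in 2DG and -0.23 in 2DG plus phenformin against DMSO, and against phenformin it was -0.0021 in GH plus phenformin but -0.077 with 2DG plus phenformin. SMAD3 was -0.0083, SMAD7 -0.032 and SKI -0.67 in 2DG against DMSO, SMAD6 was -0.25 in GH plus phenformin against phenformin and -0.31 in 2DG plus phenformin against DMSO, and against phenformin SKIL was 0.13 in GH plus phenformin but 0.20 with 2DG plus phenformin. INHBA had no value under the filter of at least 1 FPKM in all libraries. Fitting only the compared groups, which leaves fewer libraries for the spread, changed 1 member in GH, 0 in phenformin (3 at an unadjusted p under 0.05) and 3 in GH plus phenformin against DMSO, 2 in GH plus phenformin against GH and 2 between the combinations. For phenformin against DMSO, 2 members changed under the filter of 1 FPKM, the GC and length correction, the replicate block, both together, and without DMSO C and GH plus phenformin A. The interaction of GH and phenformin had 1 member under the filter of 1 FPKM and 5 without those 2 libraries. With the replicate block it had 4, also with the correction, and 2DG plus phenformin against DMSO then had 10. The replicate block alone lost 0 of the 54 calls. Replicate letters were not taken as pairing, since neither the labels nor the study's methods state one. Libraries of the same letter were nonetheless more alike in their deviations from the group means. The mean r was 0.185 for the same letter (-0.434 to 0.592) and -0.094 for other letters. Of 45 same-letter pairs, 29 had r above 0.1, and 12 of 18 libraries correlated best with their own letter. Whether the letters mark a shared batch was not tested. Leaving out 1 library at a time gave 1 to 4 changed members in GH (4 without GH plus phenformin A), 1 to 2 in phenformin and 3 to 6 in 2DG against DMSO (3 without DMSO A), 3 to 5 between the combinations, and 2 to 6 for the interaction of GH and phenformin (6 without GH plus phenformin A). The causes of these changes were not tested. INHBA rested on as few as 119 fragments in a library, a counting error of 9.17%.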
